A study of Mus musculus with 11 samples.

Results

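Apoptotic cells are cleared by phagocytes through receptors that bind phosphatidylserine, a lipid exposed on the surface of dying cells, either directly or through soluble bridging molecules. The genes described here are 10 members of this machinery, taken by symbol from the 37583 genes of the expression table. They are the TAM receptor kinases Mertk, Axl and Tyro3, the scavenger receptor Stab1 (stabilin-1), the bridging molecules Gas6, Pros1 (protein S) and Mfge8, and the integrin chains Itgav, Itgb5 and Itgb3. All 10 symbols were found, each on a single row, and all 10 passed the filter on low counts in the test between regions. Gas6 and protein S link phosphatidylserine to the TAM kinases, and MFG-E8 links it to the integrins that the alpha V chain forms with the beta 5 or beta 3 chain. Engulfed material then passes to the phagosome and lysosome. In the epididymis, the duct in which sperm mature and are stored, mononuclear phagocytes lie in and around the epithelium and take up dying epithelial cells.

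RNA was sequenced from CX3CR1+ mononuclear phagocytes, sorted by EGFP in a double sort from the epididymis of mice 12 weeks old, to ask how their expression varied with the region they came from. The 11 libraries came from the initial segments (IS, 4 libraries), the caput/corpus (3) and the cauda (4), and each was made from 4 epididymides. All mice of all 3 groups carried CX3CR1 EGFP +/-, with EGFP made under the control of the Cx3cr1 gene, and none of the libraries came from mice without it. Which animals went into which library is not stated, so p-values measure the spread between these libraries. Cells outside the phagocyte lineage that express Cx3cr1, or that travelled with EGFP+ cells through the sort, would be in the libraries too.

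Libraries held 16873180 to 31737132 reads on genes. Levels are RPKM (reads scaled to gene length and library size, as the authors computed them), given in the order of replicate 1 upward within a region. The titles name 2 series, Maj3 (5 libraries) and Maj4 (6), each with all 3 regions. The deposited count files and the named columns of the RPKM table held different reads for 3 Maj3 libraries. The column named for IS replicate 2 equals the count file filed under caput/corpus replicate 1, and the column named for caput/corpus replicate 1 equals the file filed under cauda replicate 1. The column named for cauda replicate 1 equals no count file. Values here follow the named columns, of which 10 of 11 equal a count file, and fold changes with the 8 libraries free of conflict are given beside those of 8 genes, all but Tyro3 and Itgb3, which had few reads. Cauda replicate 1 stood apart, with reads on 13434 genes against 17053 to 18837 in the other libraries.

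The sorted-lineage list (Cx3cr1, Csf1r, Adgre1, Ptprc, Fcgr1, Cd68, Aif1, Lyz2) was present in every library, with summed levels of 6412 to 9427 RPKM in IS, 7383 to 10964 in caput/corpus and 8528 to 12041.5 in cauda. Lyz2, the lysozyme gene, made up most of that sum, and its members did not move together. In IS over cauda 5 of the 8 were higher in IS by edgeR (Cx3cr1, Csf1r, Fcgr1, Aif1 and Adgre1) and 2 lower (Lyz2 and Ptprc), and in IS over caput/corpus Cx3cr1 alone was called, as higher. Csf1r, the growth factor receptor of macrophages, averaged 630.3 ± 55.9 RPKM in IS and 287 ± 80.0 in cauda (SD), with a log2 fold change of 1.14 ± 0.21 (SE, edgeR adjusted p = 0.00470). The part of these lineage genes in the members' values was not tested. Marker lists of other cells also differed in level between regions. The 18 epididymal epithelium markers summed to 1144 to 2638 RPKM in IS, 271 to 528 in caput/corpus and 11.5 to 30.3 in cauda, where Crisp4 had no read in any library. The 13 smooth muscle and fibroblast markers summed to 75.2 to 256 RPKM in IS, 22.9 to 130 in caput/corpus and 11.3 to 37.5 in cauda, but only 2 of the 13 were called in IS over cauda (Actg2 and Pdgfra) and 1 in IS over caput/corpus (Actg2), all higher in IS. Monocyte markers ran the other way, with sums of 208 to 430 RPKM in IS, 654 to 1119.8 in caput/corpus and 1074 to 1521 in cauda, and mast cell markers summed to 25.9 to 99.0 RPKM in IS, 613 to 882 in caput/corpus and 876 to 3436 in cauda. Dendritic cell markers summed to 189 to 381 RPKM in IS, 833 to 1159.7 in caput/corpus and 756 to 1639 in cauda. By edgeR, 14 of 18 epithelial markers were higher in IS than in cauda, while 7 of 7 monocyte, 7 of 7 mast cell and 6 of 8 dendritic cell markers were lower. Over caput/corpus, 8 of the 18 epithelial markers were higher in IS. Lcn5 was lower, at 1.31 RPKM in IS and 65.6 in caput/corpus. Epcam, Krt8, Krt18, Krt19 and Cdh1 were not called there, while Epcam, Krt8 and Krt18 were among the 14 higher in IS than in cauda. The largest parts of the IS epithelial sums were Gpx5, Lcn9 and Lcn8, at means of 478, 418 and 416 RPKM, so these sums follow a few genes. Of 10 immediate early genes, which are known to respond to the handling of cells, 9 were lower in IS than in caput/corpus (all but Junb) and 9 lower than in cauda (all but Jun), so that 8 were lower than in both. Lymphocyte markers summed to at most 45.6 RPKM and sperm markers to at most 12.7 RPKM in any library. The part of these cells in the results was not tested, and in bulk samples fewer cells of a type and less RNA per cell cannot be told apart.

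**Figure D1:**
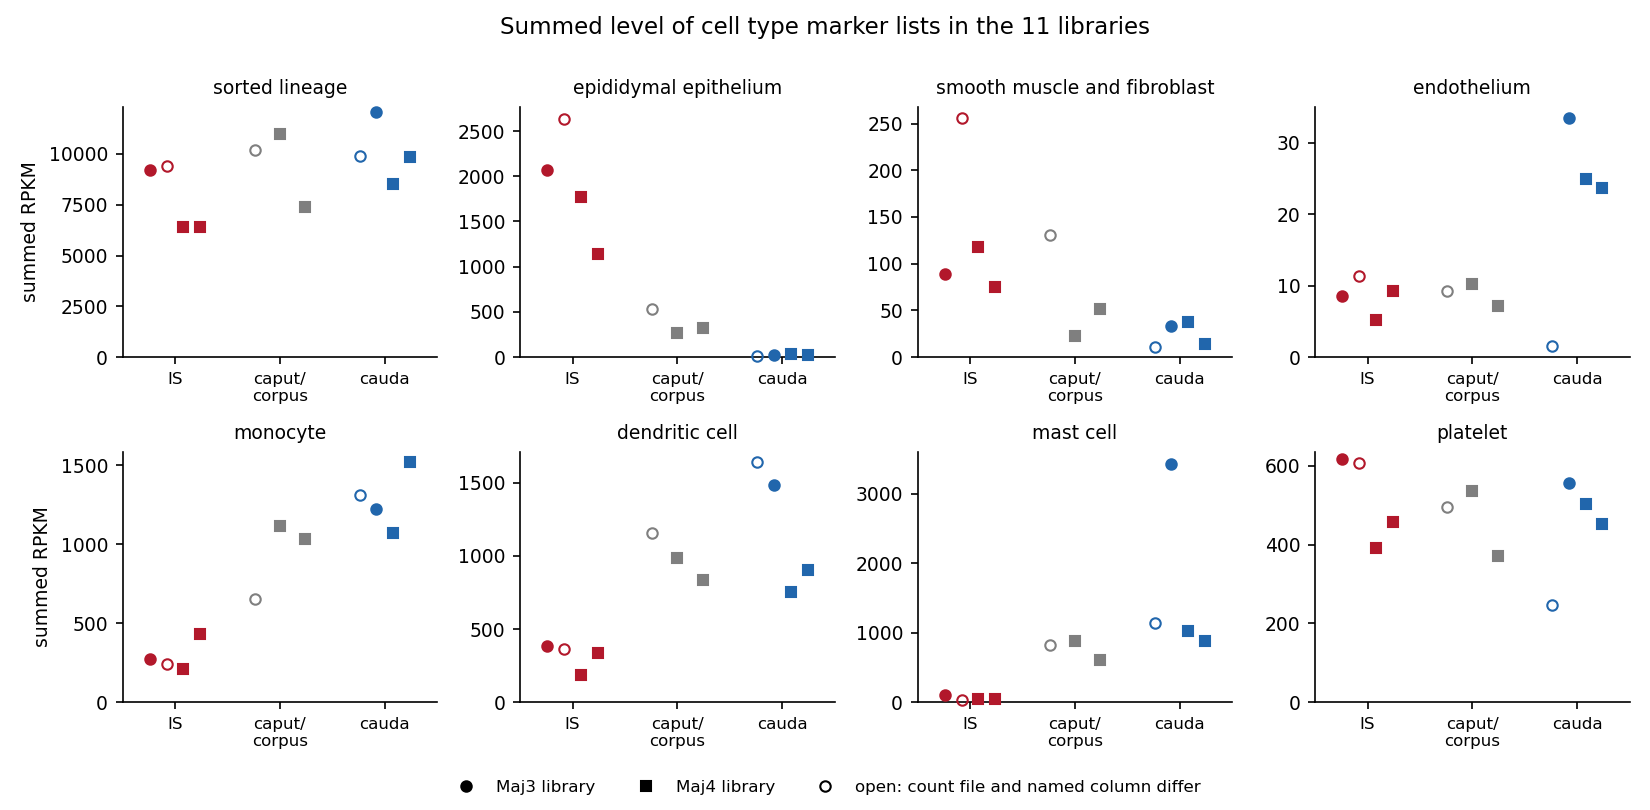
Summed RPKM (linear axis) of 8 marker lists in each library, with IS, caput/corpus and cauda from left to right; circles are Maj3 and squares Maj4 libraries, and open symbols are the 3 libraries whose count file and named column differ. Epithelial sums lay at 1144 to 2638 RPKM in IS and at 30.3 RPKM or less in cauda, while mast cell sums lay at 99.0 RPKM or less in IS and at 613 RPKM or more in the other regions.

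Of the 10 genes, 6 were higher in IS than in cauda (edgeR quasi-likelihood test, adjusted p under 0.05 over all 15116 genes tested), namely Mertk, Axl, Stab1, Mfge8, Itgav and Itgb5, and none was lower. Of all genes tested, 16.5% were called in that comparison and 7.4% as higher in IS. Mertk, Stab1 and Mfge8, 3 of the 10, were also higher in IS than in caput/corpus, where 3.78% of all genes were called and 0.794% as higher in IS. Between caput/corpus and cauda edgeR called 0 of the 10, against 0.615% of all genes, while 6 of the 10 had an unadjusted p under 0.05 and DESeq2 called 3. The 10 genes together took 0.403%, 0.408%, 0.552% and 0.447% of all reads on genes in the IS libraries. Their share was 0.262%, 0.207% and 0.257% in the caput/corpus libraries and 0.0708%, 0.123%, 0.201% and 0.151% in the cauda libraries. The shares of the 3 regions did not overlap, and cauda replicate 1 had the lowest.

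Shown here are the 250 bases before the annotated start of the 6 genes called higher in IS than in cauda. They run 5′ to 3′ on the strand of the gene, in lower case. Every GAGGAA or its reverse complement TTCCTC is in capitals. GAGGAA is a core of the motif bound by PU.1, the factor that directs the myeloid lineage. The sequences and their coordinates are from RefSeq on GRCm38.p6, a later build than the mm9 named in the submitters' processing notes.
Mertk (chr2:128698665-128698914, plus strand): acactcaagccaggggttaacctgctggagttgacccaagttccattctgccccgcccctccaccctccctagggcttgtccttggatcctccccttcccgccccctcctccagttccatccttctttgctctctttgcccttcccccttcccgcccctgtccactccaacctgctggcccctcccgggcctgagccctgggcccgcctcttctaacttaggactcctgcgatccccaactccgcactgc
Axl (chr7:25788734-25788983, minus strand): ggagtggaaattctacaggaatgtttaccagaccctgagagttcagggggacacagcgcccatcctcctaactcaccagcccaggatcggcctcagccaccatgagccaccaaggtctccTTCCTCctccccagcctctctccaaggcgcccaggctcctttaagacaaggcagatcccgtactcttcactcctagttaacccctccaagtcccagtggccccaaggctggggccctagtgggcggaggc
Stab1 (chr14:31168642-31168891, minus strand): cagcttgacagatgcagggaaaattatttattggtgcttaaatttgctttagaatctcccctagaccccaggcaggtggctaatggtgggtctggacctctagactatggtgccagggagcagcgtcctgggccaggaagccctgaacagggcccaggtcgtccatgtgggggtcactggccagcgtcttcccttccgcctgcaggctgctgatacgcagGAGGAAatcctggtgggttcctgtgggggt
Mfge8 (chr7:79149061-79149310, minus strand): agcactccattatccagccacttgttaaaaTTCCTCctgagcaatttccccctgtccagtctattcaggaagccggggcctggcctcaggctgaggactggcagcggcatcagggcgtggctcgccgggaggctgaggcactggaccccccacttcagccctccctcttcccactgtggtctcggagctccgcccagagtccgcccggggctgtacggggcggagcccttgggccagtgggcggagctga
Itgav (chr2:83724147-83724396, plus strand): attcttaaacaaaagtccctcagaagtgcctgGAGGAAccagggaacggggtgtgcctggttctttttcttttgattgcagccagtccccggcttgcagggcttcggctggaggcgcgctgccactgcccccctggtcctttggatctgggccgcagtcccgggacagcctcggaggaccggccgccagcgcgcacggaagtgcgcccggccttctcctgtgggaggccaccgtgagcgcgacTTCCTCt
Itgb5 (chr16:33829415-33829664, plus strand): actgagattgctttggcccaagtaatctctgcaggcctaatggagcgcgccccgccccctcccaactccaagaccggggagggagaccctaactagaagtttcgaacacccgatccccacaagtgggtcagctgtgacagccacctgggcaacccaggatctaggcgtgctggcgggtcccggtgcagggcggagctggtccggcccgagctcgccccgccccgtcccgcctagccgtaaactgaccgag

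Of the 10 genes, 9 were in the RefSeq promoter table. GAGGAA on either strand was found in 4 of those 9 windows (1 match each for Axl, Mfge8 and Stab1, and 2 for Itgav) and in 23.3% of all 32851 windows of 250 bases. In Stab1 the match began 30 bases before the start, in Axl 130 and in Mfge8 220, and those of Itgav began 218 and 7 bases before it. The GC box GGGCGG, on either strand, was found in 7 of the 9 windows, all but those of Stab1 and Itgav, and in 32.7% of all windows. The nuclear receptor half-site AGGTCA was in none of the 9 and in 14.0% of all windows. No match of a motif overlapped a match of another, and a match describes letters, not binding.

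**Figure D2:**
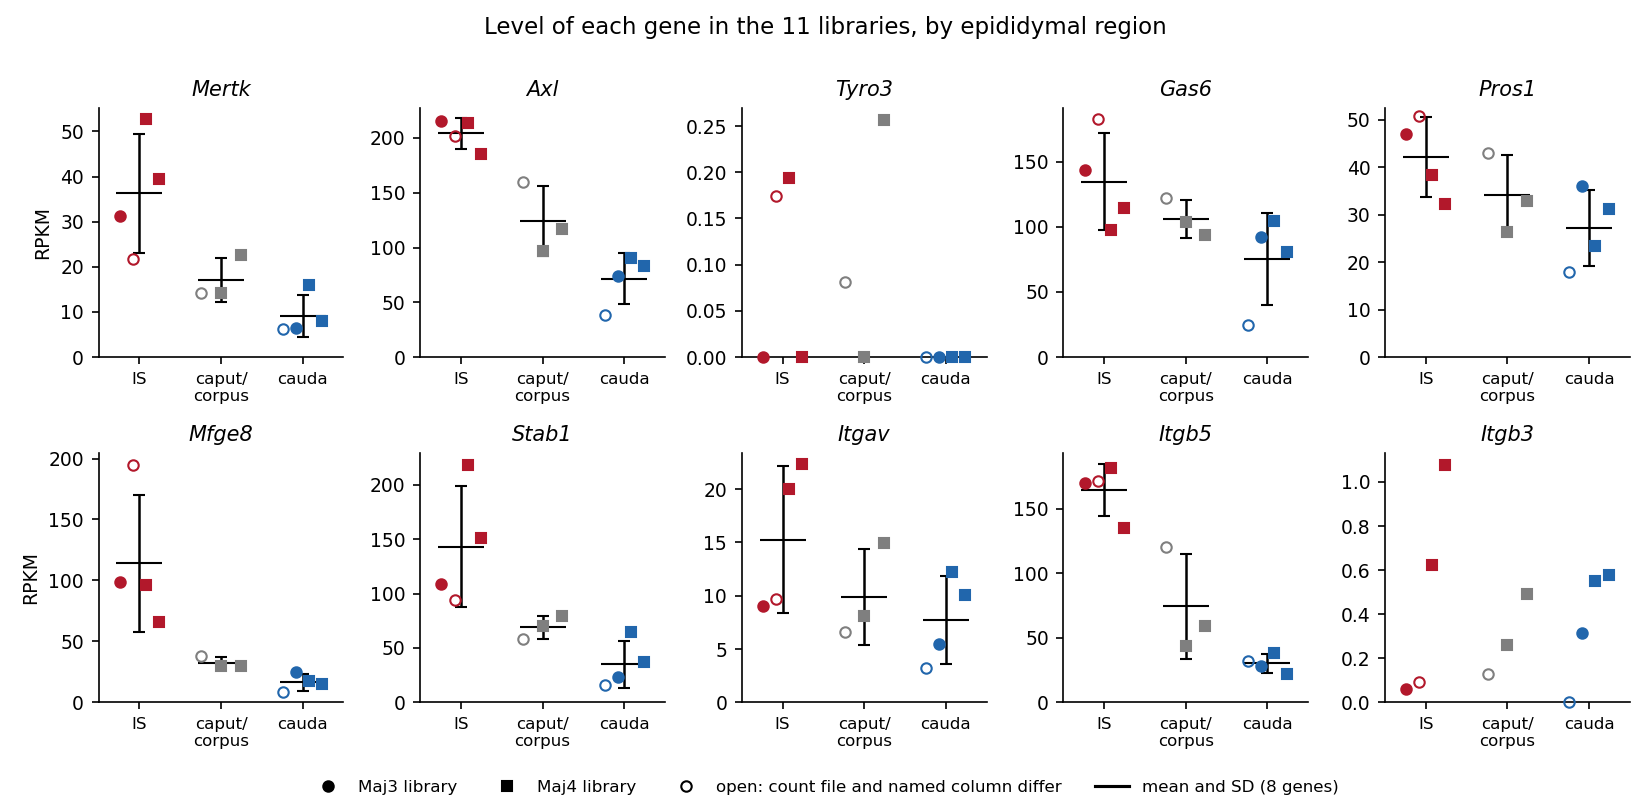
RPKM (linear axis from 0) of each of the 10 genes in the 11 libraries, by region from IS to cauda; circles are Maj3 and squares Maj4 libraries, open symbols are the 3 libraries with conflicting sources, and bars are mean and SD for 8 genes. The IS libraries lay above all cauda libraries for Mertk, Axl, Mfge8, Stab1 and Itgb5, while Tyro3 and Itgb3 stayed at or under 1.08 RPKM.

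Among the TAM receptors, Axl, the receptor kinase that binds Gas6, was the most abundant. Its level was 216, 202, 214 and 185 RPKM in IS, 159.7, 96.5 and 117 RPKM in caput/corpus, and 38.6, 74.2, 90.7 and 82.8 RPKM in cauda. The 3 regions did not overlap for Axl, and the 4 IS libraries lay close together. Means and SDs were 204 ± 14.0 RPKM over the 4 IS libraries, 124 ± 32.3 over the 3 caput/corpus libraries and 71.6 ± 23.0 over the 4 cauda libraries. Axl was higher in IS than in cauda by a log2 fold change of 1.51 ± 0.25 (SE), a 2.86-fold difference (edgeR adjusted p = 0.00248). Against caput/corpus its log2 fold change in IS was 0.71 ± 0.27 and did not pass (edgeR adjusted p = 0.214). It did pass with the 8 libraries free of conflict, at 0.96 ± 0.15 (adjusted p = 0.0110), and IS over cauda gave 1.32 ± 0.13 (adjusted p = 0.000482).

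Mertk, the TAM kinase that marks many tissue-resident macrophages and triggers engulfment, had 31.3, 21.7, 52.7 and 39.4 RPKM in IS. It had 14.2, 14.1 and 22.6 RPKM in caput/corpus and 6.18, 6.49, 16.1 and 7.90 RPKM in cauda. All IS libraries exceeded all cauda libraries, while IS replicate 2 fell just under caput/corpus replicate 3. The log2 fold change was 1.16 ± 0.27 for IS over caput/corpus (2.23-fold, edgeR adjusted p = 0.0440) and 2.00 ± 0.25 for IS over cauda (3.99-fold, adjusted p = 0.000594). With the 8 libraries free of conflict these were 1.38 ± 0.34 (adjusted p = 0.0513) and 2.05 ± 0.29 (adjusted p = 0.00228).

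Tyro3, the third TAM kinase, was close to undetected. It had 27 and 21 reads in IS replicates 2 and 3 and no read in the other two, 13 and 31 reads in caput/corpus replicates 1 and 3 and none in replicate 2, and no read in any cauda library. Pooled over each region, it was at least 17.0-fold higher in IS and at least 21.4-fold higher in caput/corpus than the floor of 3 reads over the cauda group, a bound that covers counting error only. Its edgeR test did not pass in any comparison (adjusted p = 0.989 for IS over caput/corpus, 0.148 for IS over cauda and 0.393 for caput/corpus over cauda), and 2 of 4 IS libraries had no read either.

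The TAM receptors summed to 240.5 ± 20.4 RPKM in IS, 141 ± 31.7 in caput/corpus and 80.7 ± 26.3 in cauda (SD). Axl made up 85.0 ± 4.58% of that sum in IS, 87.5 ± 4.10% in caput/corpus and 88.6 ± 3.53% in cauda. The ratio of Mertk to Axl within a library ran from 0.108 to 0.247 in IS, 0.0890 to 0.194 in caput/corpus and 0.0874 to 0.177 in cauda, so the regions overlapped. The mean log2 ratio was 0.45 higher in IS than in cauda (two-sided exact permutation test, p = 0.257, adjusted p = 0.735 over 9 ratio comparisons), where 4 against 4 libraries allow 0.0286 at best.

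Stab1, a large scavenger receptor of macrophages and sinusoidal endothelium that binds phosphatidylserine directly, had 109, 94.4, 219 and 151 RPKM in IS. It had 58.0, 69.8 and 79.4 RPKM in caput/corpus and 15.5, 23.0, 64.3 and 37.1 RPKM in cauda. Every IS library exceeded every library of the other regions, and within each region the Maj4 libraries were the higher ones. Stab1 was higher in IS than in caput/corpus by a log2 fold change of 1.12 ± 0.27 (2.18-fold, edgeR adjusted p = 0.0475) and higher than in cauda by 2.11 ± 0.25 (4.32-fold, adjusted p = 0.000453). With the 8 libraries free of conflict these were 1.37 ± 0.27 (adjusted p = 0.0240) and 1.99 ± 0.23 (adjusted p = 0.000935). Endothelium also makes stabilin-1, and its 9 markers summed to 5.21 to 11.3 RPKM in IS, 7.21 to 10.2 in caput/corpus and 1.59 to 33.4 in cauda, with the 3 highest sums in cauda. Much of the cauda level was Lyve1, at 18.0 ± 11.9 RPKM, against 4.88 ± 2.16 in IS (SD). Pecam1 averaged 2.17 RPKM in IS and 1.13 in cauda, Kdr 0.672 and 0.181, and Cdh5 0.0889 and 0.0340. Vwf averaged 0.531 RPKM in IS and 1.37 in cauda, and Tek 0.0444 and 0.0910. The cauda sums thus follow Lyve1 more than the list as a whole. Of the 6 markers tested, only Vwf was called by edgeR in IS over cauda, as lower in IS. The median log2 fold change of these 6 was 0.92 for IS over cauda. The part of endothelium in the Stab1 values was not tested.

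Of the bridging molecules, Mfge8, which carries phosphatidylserine to alpha V integrins, differed most between regions. Its level was 98.7, 195, 96.0 and 66.1 RPKM in IS, 37.6, 29.6 and 29.4 RPKM in caput/corpus, and 8.58, 24.9, 17.0 and 14.7 RPKM in cauda. The 3 regions did not overlap, and IS replicate 2 was the highest. Mfge8 was higher in IS than in caput/corpus by a log2 fold change of 1.70 ± 0.37 (3.26-fold, edgeR adjusted p = 0.0332) and higher than in cauda by 2.74 ± 0.35 (6.70-fold, adjusted p = 0.000590). With the 8 libraries free of conflict, which leave out IS replicate 2, the log2 fold changes were 1.39 ± 0.20 (adjusted p = 0.00748) and 2.23 ± 0.17 (adjusted p = 0.000203). IS replicate 2 also had the highest epithelial marker sum (2638 RPKM) and the highest smooth muscle and fibroblast sum (256 RPKM) of all libraries, and the part of these cells in the Mfge8 values was not tested.

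Gas6, the ligand of all TAM kinases, was abundant in every region. It had 144, 183, 97.9 and 114 RPKM in IS, 122, 103 and 93.3 RPKM in caput/corpus, and 24.6, 92.4, 105 and 80.5 RPKM in cauda. The regions overlapped, and cauda replicate 1 was far below the other libraries. Its log2 fold change was 0.32 ± 0.41 for IS over caput/corpus and 0.82 ± 0.38 for IS over cauda, and neither passed (edgeR adjusted p = 0.856 and 0.179). With the 8 libraries free of conflict, which leave out cauda replicate 1, the IS over cauda value was 0.35 ± 0.15 (adjusted p = 0.171) and the IS over caput/corpus value 0.18 ± 0.18 (adjusted p = 0.631).

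Pros1 encodes protein S, a ligand of Mertk and Tyro3 that also serves as an anticoagulant in plasma. It had 47.1, 50.8, 38.5 and 32.3 RPKM in IS, 43.1, 26.4 and 33.0 RPKM in caput/corpus, and 18.0, 36.1, 23.3 and 31.3 RPKM in cauda. The 3 regions overlapped. Its log2 fold change for IS over cauda was 0.60 ± 0.21 and did not pass (edgeR adjusted p = 0.0819), and that for IS over caput/corpus was 0.25 ± 0.23 (adjusted p = 0.752). The 8 libraries free of conflict gave 0.38 ± 0.15 for IS over cauda (adjusted p = 0.138) and 0.25 ± 0.18 for IS over caput/corpus (adjusted p = 0.475).

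Makeup of the 3 bridging molecules differed between regions in the share of Mfge8. It averaged 38.0 ± 6.58% of their summed RPKM over the IS libraries (± SD), 18.7 ± 0.178% over caput/corpus and 14.1 ± 2.77% over cauda, and every IS library, from 31.1% up, lay above the highest of the others, at 18.9%. Gas6 had the largest mean share in every region, at 47.1 ± 5.62% in IS, 61.6 ± 2.78% in caput/corpus and 61.0 ± 9.99% in cauda. The mean log2 ratio of Gas6 to Pros1 was 1.66 ± 0.23 in IS, 1.66 ± 0.27 in caput/corpus and 1.33 ± 0.70 in cauda, and IS and cauda differed by 0.32 (two-sided exact permutation test, p = 0.543, adjusted p = 0.735). In IS replicate 2 all 3 bridging molecules were at the highest level of any library.

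**Figure D3:**
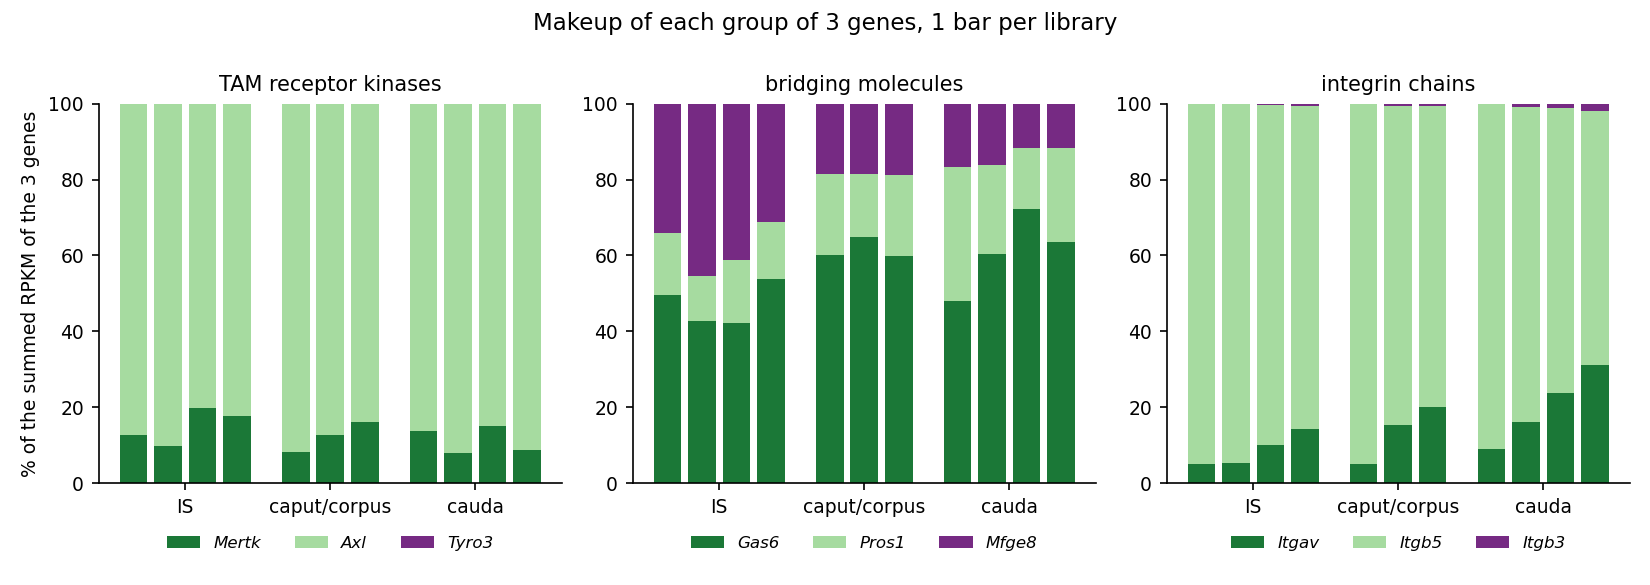
Share (%) of each gene in the summed RPKM of its group of 3, with 1 bar per library in replicate order and IS, caput/corpus and cauda from left to right. Axl is at least 80.1% of the TAM receptors in every library, and Mfge8 takes at least 31.1% of the bridging molecules in the IS libraries and at most 18.9% elsewhere.

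Itgb5 encodes the integrin beta 5 chain, which pairs with alpha V as a receptor for MFG-E8. Its level was 170.4, 171, 181 and 135 RPKM in IS, 121, 44.0 and 58.8 RPKM in caput/corpus, and 32.3, 27.9, 38.5 and 21.7 RPKM in cauda. The 3 regions did not overlap, with caput/corpus replicate 1 close to the lowest IS library. Itgb5 was higher in IS than in cauda by a log2 fold change of 2.44 ± 0.27, a 5.41-fold difference (edgeR adjusted p = 0.000320). Over caput/corpus the log2 fold change of 1.14 ± 0.29 just missed the threshold (edgeR adjusted p = 0.0582), and without the libraries in conflict, caput/corpus replicate 1 among them, it was 1.65 ± 0.28 and passed (adjusted p = 0.0126), while IS over cauda was 2.47 ± 0.24 (adjusted p = 0.000426). Caput/corpus replicate 1 also had the highest epithelial sum of its region (528 RPKM, against 271 and 325), and the part of epithelium in the Itgb5 values was not tested.

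Itgav, the alpha V chain shared by both integrins, had 9.03, 9.65, 20.0 and 22.4 RPKM in IS, 6.56, 8.07 and 15.0 RPKM in caput/corpus, and 3.23, 5.46, 12.3 and 10.0 RPKM in cauda. The regions overlapped, and within each the Maj4 libraries were higher than the Maj3 libraries. With series in the model, Itgav was higher in IS than in cauda by a log2 fold change of 1.01 ± 0.22 (2.01-fold, edgeR adjusted p = 0.0105). Within Maj4 alone it was 0.93 ± 0.29 (adjusted p = 0.102) and within Maj3 alone 1.15 ± 0.32 (adjusted p = 0.272). Against caput/corpus the value in IS was 0.74 ± 0.24 and did not pass (adjusted p = 0.136). The 8 libraries free of conflict gave 0.86 ± 0.22 for IS over cauda (adjusted p = 0.0287) and 0.84 ± 0.25 for IS over caput/corpus (adjusted p = 0.0949).

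Itgb3, the beta 3 chain, which is abundant in platelets, had few reads. It had 10, 14, 68 and 147 reads in IS, 21, 32 and 60 reads in caput/corpus, and 0, 54, 56 and 78 reads in cauda. The regions overlapped, and no comparison passed (edgeR adjusted p = 0.956 for IS over caput/corpus, 0.951 for IS over cauda and 0.922 for caput/corpus over cauda). In every library with a read of Itgb3, Itgb5 was at the higher level, by 125 to 2827 times in IS, 119 to 926 times in caput/corpus and 37.5 to 88.8 times in 3 cauda libraries. The mean log2 ratio was 3.43 higher in IS than in the 3 cauda libraries with a read of Itgb3 (two-sided exact permutation test, p = 0.0571, adjusted p = 0.45). There 0.0571 is the smallest p that 4 against 3 libraries allow. Cauda replicate 1, with 3405 reads of Itgb5 and 0 of Itgb3, has no finite ratio and was left out. Its ratio would be high, as in the other Maj3 libraries with few Itgb3 reads. The difference therefore does not describe all 4 cauda libraries. The 3 highest ratios were in the Maj3 libraries with 10, 14 and 21 Itgb3 reads. The 5 platelet markers summed to 392 to 617 RPKM in IS, 370 to 535 in caput/corpus and 248 to 556 in cauda. Nearly all of that sum was Pf4, which was not called between regions and averaged 516, 463 and 433 RPKM in IS, caput/corpus and cauda. In the same order, Ppbp averaged 2.18, 1.79 and 0.969 RPKM and Gp9 0.204, 0.296 and 0.237 RPKM. The platelet sum thus describes Pf4 and not the list as a whole. Of the other 4 platelet markers, Itga2b and Gp1ba were lower in IS than in cauda, with Itga2b at 0.176 ± 0.146 RPKM in IS and 3.59 ± 1.16 in cauda and Gp1ba at 0.319 ± 0.151 in IS and 2.05 ± 1.37 in cauda (SD, edgeR adjusted p = 0.000666 for Itga2b and 0.0257 for Gp1ba). Their part in the Itgb3 values was not tested.

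At an unadjusted p under 0.05, 6 of the 10 genes passed in IS over caput/corpus, 8 in IS over cauda and 6 in caput/corpus over cauda, against 15.1%, 29.7% and 11.7% of all genes tested. Members with all IS libraries above all caput/corpus libraries numbered 4 (Axl, Mfge8, Stab1 and Itgb5), as did 6.82% of all genes. All IS libraries lay above all cauda libraries for 5 members (these 4 and Mertk) and 10.6% of all genes, and all caput/corpus libraries lay above all cauda libraries for 3 members (Axl, Mfge8 and Itgb5) and 6.52% of all genes.

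The median log2 fold change over the 10 genes was 0.73 for IS over caput/corpus, 1.75 for IS over cauda and 0.82 for caput/corpus over cauda, with Tyro3 against cauda at its fitted value or its bound. The medians over all genes tested were 0.02, 0.05 and 0.02. The median without Tyro3 was 0.74, 1.51 and 0.80. These comparisons share libraries, so they are not independent of each other.

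**Figure D4:**
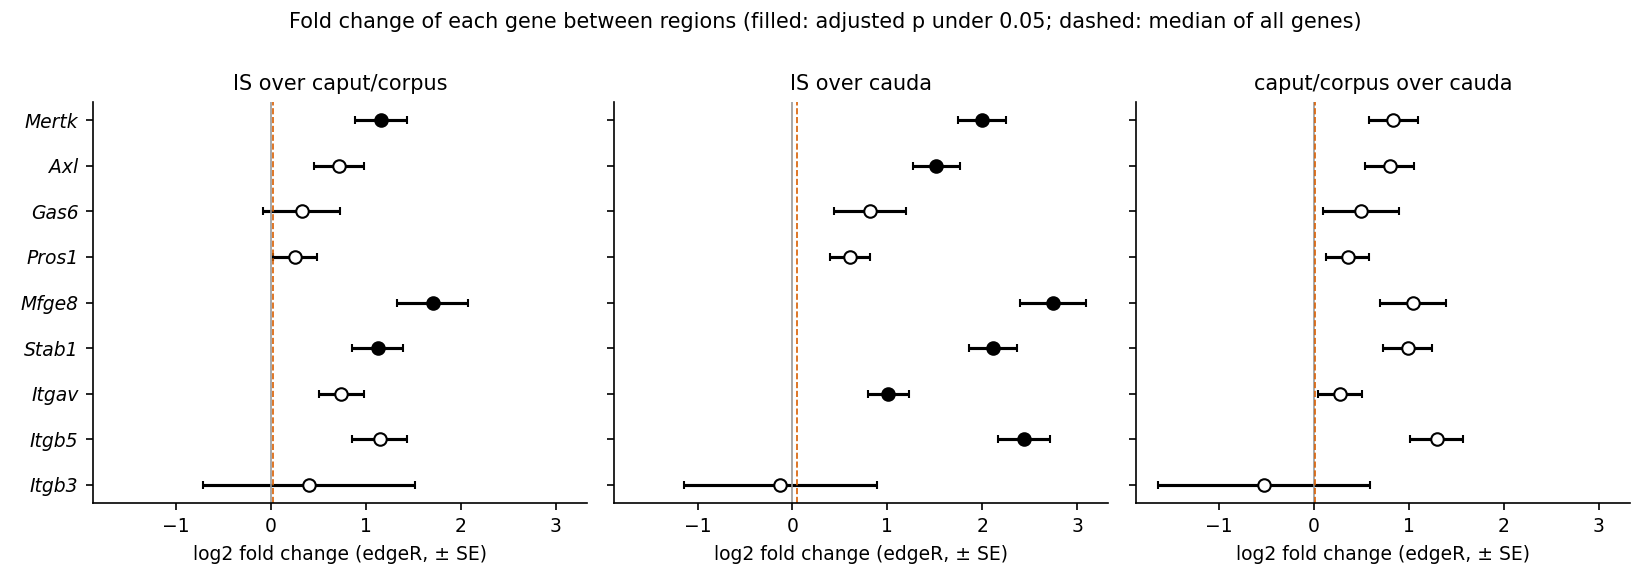
Log2 fold change ± SE (edgeR) of 9 of the 10 genes in each comparison of regions, with filled points at an adjusted p under 0.05, a solid line at 0 and a dashed line at the median of all genes. In the IS over cauda panel 6 points are filled, from 1.01 for Itgav to 2.74 for Mfge8, and in the caput/corpus over cauda panel none is; Tyro3 is left out because it had no read in cauda.

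Calls in IS over cauda held in all 11 fits that each left out 1 library, with log2 fold changes of 1.85 to 2.26 for Mertk, 1.28 to 1.65 for Axl, 1.94 to 2.39 for Stab1, 2.44 to 2.96 for Mfge8, 0.86 to 1.11 for Itgav and 2.29 to 2.71 for Itgb5. Calls in IS over caput/corpus lay close to the threshold. No member was called there by edgeR without IS replicate 1, 2 or 3 or without caput/corpus replicate 2 or 3, fits in which 5 or 6 members had an unadjusted p under 0.05. Without IS replicate 4, cauda replicate 2 or cauda replicate 4 the number was 1, without caput/corpus replicate 1 it was 2, without cauda replicate 3 it was 3, and without cauda replicate 1 it was 6. In these fits the adjusted p reached 0.180 for Mertk, 0.135 for Mfge8 and 0.214 for Stab1, while their log2 fold changes stayed at 0.96 to 1.35, 1.43 to 1.89 and 0.99 to 1.44. In caput/corpus over cauda, Stab1 and Itgb5 were called without cauda replicate 3 (adjusted p = 0.0363 each).

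The calls also moved with the assignment of reads to libraries. With the 8 libraries free of conflict, edgeR called 4 members in IS over caput/corpus (Axl, Mfge8, Stab1 and Itgb5) and 6 in IS over cauda. With the count files taken as they are filed under each sample, it called none of the 10 in any comparison. Their unadjusted p was then under 0.05 for 0 of 10 in IS over caput/corpus, 6 of 10 in IS over cauda and 1 of 10 in caput/corpus over cauda. In that reading the log2 fold changes of the 6 genes for IS over cauda were 0.70 for Itgav, 0.82 for Axl, 1.46 for Stab1, 1.61 for Mertk, 1.61 for Itgb5 and 1.84 for Mfge8, all positive with edgeR adjusted p of 0.0919 to 0.232. For the 3 genes called in IS over caput/corpus, the log2 fold change as filed was 0.11 ± 0.60 for Mfge8, against 1.70 by column name, 0.65 ± 0.44 for Stab1, against 1.12, and 0.84 ± 0.39 for Mertk, against 1.16. The Mfge8 difference between IS and caput/corpus thus depended on which reads were taken for each library. The reads filed as caput/corpus replicate 1 had an epithelial marker sum of 2638 RPKM and a mast cell marker sum of 25.9 RPKM. By column name, caput/corpus epithelial sums were at most 528 RPKM and mast cell sums at least 613 RPKM. The reads filed as cauda replicate 1 had an epithelial sum of 528 RPKM, against 11.5 to 30.3 in cauda by column name. Which assignment is right was not tested.

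Series went with the level of 3 members. Between the Maj4 and Maj3 libraries, in the same fit, Itgav was higher in Maj4 by a log2 fold change of 1.16 ± 0.19 (edgeR adjusted p = 0.00221), Stab1 by 0.94 ± 0.21 (adjusted p = 0.0113) and Mertk by 0.74 ± 0.21 (adjusted p = 0.0330), where 20.3% of all genes were called. Mertk averaged 46.1 RPKM in the Maj4 and 26.5 RPKM in the Maj3 libraries of IS (2 each), and 12.0 and 6.34 RPKM in those of cauda. The share of reads that did not align uniquely was 12.5% to 14.7% in Maj4 files and 27.6% to 35.8% in Maj3 files. Within each series, IS over cauda kept its direction for the 6 genes: the log2 fold change was 0.93 (Itgav) to 2.40 (Itgb5) in Maj4 and 1.15 (Itgav) to 3.18 (Mfge8) in Maj3, where the 2 libraries per region gave a call for Itgb5 only (edgeR adjusted p = 0.0341).

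Ordered by mean RPKM, IS had Axl (204), Itgb5 (165), Stab1 (143), Gas6 (135), Mfge8 (114), Pros1 (42.2), Mertk (36.3) and Itgav (15.3), with Itgb3 (0.463) and Tyro3 (0.0922) last. The libraries of Axl and Itgb5 did not overlap in IS. Itgb5 overlapped Stab1, Stab1 overlapped Gas6 and Gas6 overlapped Mfge8, while Mfge8 did not overlap Pros1. Pros1 overlapped Mertk, and Mertk overlapped Itgav. In caput/corpus the order was Axl (124), Gas6 (106), Itgb5 (74.5), Stab1 (69.0), Pros1 (34.1), Mfge8 (32.2), Mertk (17.0) and Itgav (9.87), where Stab1 did not overlap Pros1, nor Mfge8 Mertk, and the other neighbours overlapped. In cauda Gas6 (75.5) and Axl (71.6) came first and overlapped, followed by Stab1 (35.0), Itgb5 (30.1), Pros1 (27.2), Mfge8 (16.3), Mertk (9.16) and Itgav (7.74), and each overlapped the next. Mfge8 stood above Pros1 in IS (66.1 RPKM at the lowest against 50.8 at the highest), and in cauda its mean was below that of Pros1.

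Across the 11 libraries, which differ in region, series and depth, Mertk and Stab1 had the most similar patterns of log2 CPM among the 10 genes (Pearson r = 0.974), and Itgb5 and Itgb3 the least (r = -0.00248). Of all other genes tested, Tgfbr1, a receptor for TGF-beta, was most like Mertk (r = 0.993), followed by Myom1 (0.987), Cttnbp2nl (0.984), Inpp4b (0.975) and Stab1. The 5 genes most like Axl were 1500010J02Rik (0.992), Csf1r (0.990), on whose signal macrophages depend for survival, Gm10345 (0.990), Rtn4rl1 (0.988) and Pmepa1 (0.986). For Stab1 they were Cttnbp2nl (0.982), 9130014G24Rik (0.979), Ulk2 (0.977), Mertk and Tfe3 (0.973). For Itgb5 they were Mmp14 (0.990), a membrane-anchored matrix protease, Sox4 (0.979), F11r (0.979), Cst8 (0.978), a cystatin of the epididymal epithelium that is on the epithelial marker list, and Smox (0.978). These values are descriptions of 11 points and carry no test.

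Around the 10 genes, 103 other genes of the same process were looked at in 8 lists, of which 94 were tested. IS over caput/corpus gave 3 called higher and 10 called lower in IS, IS over cauda gave 15 higher and 13 lower, and caput/corpus over cauda gave 1 higher, Msr1, by edgeR. Of all genes tested, 0.794% were higher and 2.98% lower in IS over caput/corpus, and 7.4% higher and 9.06% lower in IS over cauda. Lists in which few genes were called, such as 3 of 17 phagosome genes and 1 of 12 sterol genes in IS over cauda, lay near or under the 16.5% called over all genes. With the 8 libraries free of conflict, 11 of the 13 calls in IS over caput/corpus and 25 of the 28 in IS over cauda were again called, and Msr1 in caput/corpus over cauda was not (adjusted p = 0.110). With the count files as filed none was called, while 13 of 13, 28 of 28 and 1 of 1 kept their direction. Among the genes named here, Fn1 and Rac2 in IS over caput/corpus (adjusted p = 0.0521 and 0.0554) and Vav3 in IS over cauda (adjusted p = 0.0622) were those not called with the 8 libraries. In IS over cauda, every list except integrin partners and RGD ligands had genes called higher in IS. Every list except those of sterol genes and of receptor shedding and TAM feedback had genes called lower. These calls stand beside the 7.4% higher and 9.06% lower over all genes.

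Of 15 other phosphatidylserine and apoptotic cell receptors tested, 5 were higher and 2 lower in IS than in cauda. The 5 include a receptor near the floor, with a mean of 0.152 RPKM in IS and no read in any cauda library. Msr1, a scavenger receptor for modified lipoproteins, averaged 65.8 ± 18.1 RPKM (± SD, as for the genes that follow) over the IS libraries, 30.6 ± 7.19 over caput/corpus and 17.3 ± 3.74 over cauda, with a log2 fold change of 1.01 ± 0.17 for IS over caput/corpus (edgeR adjusted p = 0.0100) and 1.90 ± 0.16 for IS over cauda (adjusted p = 8.36e-05). Cd300lf, an inhibitory receptor for phosphatidylserine and ceramide, and Havcr2 (TIM-3), another phosphatidylserine receptor, were 1.23 ± 0.18 and 1.77 ± 0.28 higher in IS than in cauda on the log2 scale (adjusted p = 0.00134 and 0.00191). Cd300lb, an activating relative, ran the other way, with 8.34 ± 1.10 RPKM in IS, 26.7 ± 2.27 in caput/corpus and 36.9 ± 10.8 in cauda (log2 fold change -2.12 ± 0.17 for IS over cauda, adjusted p = 7.47e-05).

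Among 9 other bridging molecules and opsonins, 2 were higher and 2 lower in IS than in cauda. The complement genes C1qa and C1qc, whose products coat dying cells, were very abundant, with C1qa at 3289 ± 388 RPKM in IS and 1735 ± 259.7 in cauda (log2 fold change 0.91 ± 0.17, edgeR adjusted p = 0.00434) and C1qc 1.01 ± 0.19 higher (adjusted p = 0.00588). Lgals3 (galectin-3) and Anxa1 (annexin A1) were lower in IS than in both other regions, with Lgals3 at 135 ± 23.0 RPKM in IS, 371 ± 52.3 in caput/corpus and 525 ± 135 in cauda. Of 8 integrin partners and RGD ligands, none was higher in IS, and Fn1 (fibronectin) was lower in IS than in cauda by 3.18 on the log2 scale (value -3.18 ± 0.38, adjusted p = 0.000475). Itga2b, the platelet partner of beta 3, which is also on the platelet list, was lower in IS than in both other regions, and Spp1 (osteopontin) was lower than in caput/corpus (-1.52 ± 0.21, adjusted p = 0.00474). Monocyte markers, mast cell markers and dendritic cell markers were lower in IS as well, and their part in these values was not tested.

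Inside the cell, 17 engulfment signalling genes gave 1 higher in IS than in cauda (Abl1, a kinase, 0.94 ± 0.16, edgeR adjusted p = 0.00340) and 3 lower (Elmo2, Rac2 and Vav3). Elmo2, a part of the exchange factor for Rac, had 14.7 ± 1.66 RPKM in IS, 26.0 ± 3.12 in caput/corpus and 31.7 ± 8.88 in cauda. Of 17 genes of phagosome maturation and LC3-associated phagocytosis, none was called in IS over caput/corpus and 3 in IS over cauda, with Dnase2a, the lysosomal DNase, higher (0.54 ± 0.14, adjusted p = 0.0224) and Uvrag and Atg7, which act in autophagy, lower. Of 12 sterol genes only Abca1, the cholesterol efflux pump, was called in IS over cauda, at 64.9 ± 36.6 RPKM in IS and 23.2 ± 15.8 in cauda (1.58 ± 0.22, adjusted p = 0.00107).

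Among 7 find-me receptors and don't-eat-me signals, 3 were higher and 2 lower in IS than in cauda. Cx3cr1, the gene behind the EGFP gate and also on the sorted-lineage list, had 212 ± 30.5 RPKM in IS, 112 ± 31.8 in caput/corpus and 83.6 ± 13.4 in cauda (log2 fold change 1.34 ± 0.19 for IS over cauda, edgeR adjusted p = 0.00101). Gpr132, a receptor for lysophosphatidylcholine, a lipid that dying cells release, was lower, with 8.52 ± 4.87 RPKM in IS, 28.4 ± 14.8 in caput/corpus and 25.0 ± 6.56 in cauda. Its log2 fold change was -1.56 ± 0.27 for IS over caput/corpus (adjusted p = 0.0110) and -1.75 ± 0.25 for IS over cauda (adjusted p = 0.00123). S1pr1, a receptor for sphingosine 1-phosphate, was 1.67 ± 0.35 higher in IS than in cauda (adjusted p = 0.00869), and Cd47, the don't-eat-me signal, was lower, with 87.3 ± 13.8 RPKM in IS, 135 ± 14.5 in caput/corpus and 156 ± 32.1 in cauda. Of 9 genes of receptor shedding and TAM feedback, Adam17, a protease that sheds Mertk, was 0.51 ± 0.10 higher in IS than in cauda (adjusted p = 0.00679). Ifnar2, a chain of the interferon receptor through which TAM kinases act, was 0.56 ± 0.12 higher (adjusted p = 0.0107).

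**Figure D5:**
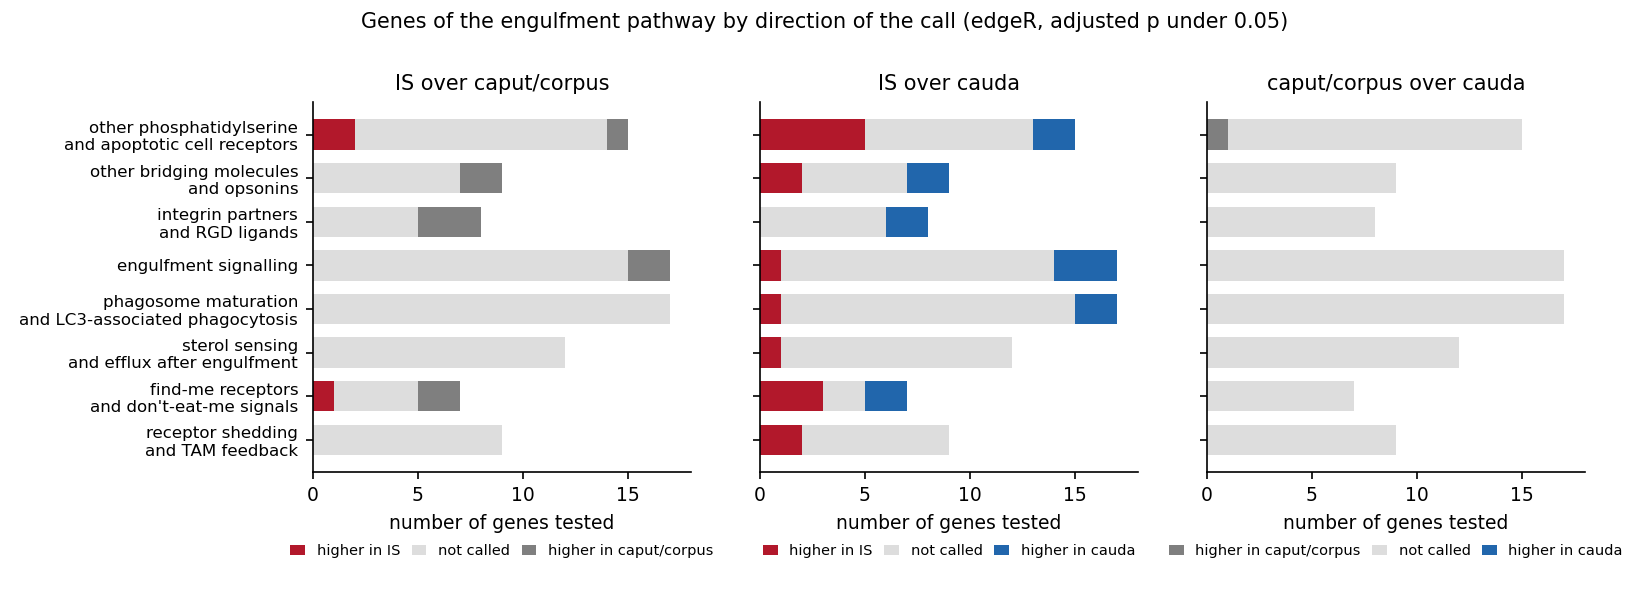
Number of genes tested in each of 8 lists of engulfment genes, split by the edgeR call (adjusted p under 0.05) in each comparison of regions: left part higher in the first region of the panel title, pale part not called, right part higher in the second. In the IS over cauda panel 15 of 94 genes were higher and 13 lower in IS, and in the caput/corpus over cauda panel 1 gene was called.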

How the data were processed

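The authors sequenced RNA of sorted EGFP+ cells (PicoRNA kit, SMARTer v4, HiSeq2500, per the labels' protocols); the submitters' processing notes name STAR, HTSeq, edgeR and mm9. They deposited read counts per gene in files named as not stranded, so reads from antisense genes cannot be told apart, and a table of RPKM values. Since the authors' RPKM times gene length gave whole reads (tolerance 0.001), the reads behind each named column were recovered and tested as counts. HTSeq rows that name no gene were left out.

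Regions were compared with edgeR 4.0.16 (quasi-likelihood test, TMM, filterByExpr by region, title series as covariate, Benjamini-Hochberg adjustment over 15116 genes, R 4.3.3), with DESeq2 1.42.0 and limma 3.58.1 (log2 of RPKM plus 1 or 0.1) as alternatives. All p-values called adjusted are from edgeR unless another test is named. The edgeR script was tested on simulated data. Ratios used exact permutation tests (SciPy 1.17.1). All 10 members are named with values. From each engulfment list, up to 4 called genes per comparison with the smallest p are named, while other genes of the marker lists are named too. For likeness, the 5 genes with the highest Pearson r are named. The members and lists were chosen with earlier results of these data known. Of the list genes, 4 appear in the table under older symbols and were matched by gene ID. The floor and bound for Tyro3 cover counting error only, while SD and SE values include the spread between libraries. The edgeR SE is the absolute log2 fold change divided by the square root of the F statistic of its test.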

Additional observations from a re-analysis of the deposited data

Results flagged for a closer look

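The count file filed under IS replicate 2 equals no named column of the RPKM table, so its reads are in no comparison between regions by column name, and the files do not settle which region those reads came from. Scaled to gene length and library size as RPKM, it held Axl at 71.9, Gas6 at 72.0, Itgb5 at 49.2, Stab1 at 40.3, Mfge8 at 24.6, Pros1 at 22.2, Mertk at 14.5, Itgav at 6.12 and Itgb3 at 0.593, while Tyro3 had no read. In none of the 19 groups of 4 libraries checked (the RPKM of each gene in IS and in cauda, without Tyro3 in cauda, where it had no read) did a library lie beyond the limit set for its distance from the others. Caput/corpus was not checked, and a pass does not show that the libraries were alike. On the first principal component of log2 CPM (43.8% of the variance), cauda replicate 1 lay at 248.6. All other libraries lay between -77.8 and 37.1.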

How the results depend on the processing

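Of 615 alternative values of the members' log2 fold changes, 522 kept their direction and side of the threshold, 50 lost the call, 24 gained it and 19 changed sign. The causes were not tested.
Genes called in IS over caput/corpus (571, of which 120 higher in IS) numbered 233 without title series in the model, 0 in Maj3 alone (404 at an unadjusted p under 0.05), 914 with the 2 regions alone, 0 with the counts as filed (1166 unadjusted), 954 with the 8 libraries free of conflict, 1262 by DESeq2 (467 higher in IS), 934 by limma on log2(RPKM + 1) and 234 to 1353 with 1 library left out. In IS over cauda (2488) they numbered 1481 without title series, 1144 in Maj4 alone, 30 in Maj3 alone, 4 as filed and 1641 to 3124 with 1 left out. In caput/corpus over cauda (93) they numbered 184 with no filter, 41 with the replicate block, 28 in Maj4 alone, 5 in Maj3 alone, 8 with the 2 regions alone, 0 as filed (992 unadjusted), 52 with the 8 libraries, 637 by DESeq2, 143 and 188 by limma with pseudocounts of 1 and 0.1, and 29 to 205 with 1 left out.
Members called in IS over caput/corpus (3) numbered 1 with the replicate block, 1 without title series, 0 in Maj3 alone (2 unadjusted), 5 with the 2 regions alone, 0 as filed (0 unadjusted), 6 by DESeq2 and 0 to 6 with 1 left out. In IS over cauda (6) they numbered 1 in Maj3 alone, 0 as filed (6 unadjusted), and in caput/corpus over cauda (0) 1 with no filter, 3 by DESeq2 and 0 to 2 with 1 left out.
Changed signs were seen for Tyro3 in IS over caput/corpus (0.52 with the block, 0.0771 in Maj3, -2.02 to 1.61 with 1 left out), Gas6 (-0.21) and Pros1 (-0.0483) there as filed, and Itgb3 in IS over caput/corpus (-0.82 in Maj3, -0.0371 to 0.82 with 1 left out). Itgb3 in IS over cauda was 0.60 with the block, 0.36 without title series, 0.59 in Maj4, 0.69 as filed, 0.0693 and 0.13 by limma and -0.53 to 1.04 with 1 left out, and in caput/corpus over cauda -1.03 to 0.79. Log2 ratios changed sign for Itgb5 to Itgb3 in IS over caput/corpus as filed (-0.15), Gas6 to Pros1 there (-0.15 as filed, -0.14 with 8 libraries, -0.0788 to 0.16 with 1 left out) and in IS over cauda (-0.0340 with 8 libraries), and Mertk to Axl in caput/corpus over cauda (-0.12 to 0.44 with 1 left out).
The labels also number the libraries of a region within a series, and these label numbers, not the replicate numbers used here, define the replicate block. Deviations of libraries with the same label number had r of -0.0378 to 0.0225 in Maj4 and 0.114 in Maj3. The Maj3 value includes libraries with conflicting sources. A low r cannot show whether libraries shared animals. The replicate block gave 398, 2362 and 41 genes in the 3 comparisons and 1, 6 and 0 members. In Maj3 alone the median of all genes was 0.15 in IS over cauda and 0.12 in caput/corpus over cauda. Depth limits Tyro3 and Itgb3, which had at most 31 and 147 reads in a library.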
